A study of Homo sapiens and Mus musculus with 4 samples.

Results

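The genes described here are CCL5 and 7 other chemokine genes that effector lymphocytes and the cells they act with are known to secrete, namely CCL3, CCL4, XCL1, XCL2, CCL1, CCL22 and CXCL10. They were chosen by name, with their levels in these libraries already known, and the mouse genes of the same symbol were added. All 8 human genes and 7 mouse genes were in the table, which makes 15 of 60736 genes, and no mouse Xcl2 was listed. Bulk RNA-seq was collected from 4 cell lines as a baseline for benchmarking single-cell methods, with 1 library per line, so no difference below has a replicate check and no p-value is given. Jurkat is a human leukaemia line that the study used as CD4+ T cells and grew in RPMI, and TALL104 is a human leukaemia line that it used as CD8+ T cells and grew in IMDM with IL-2. EL4 is a mouse lymphoma line used as CD4+ T cells and grown in RPMI with 2-mercaptoethanol, and IVA12 is a mouse B-cell hybridoma grown in DMEM. Each line is a long-established culture, and the line, its medium and the addition of IL-2 cannot be told apart. The libraries held 25286728 to 34783047 counted reads.

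Chemokines are small secreted proteins that guide leukocytes by binding receptors coupled to G proteins. CCL3, CCL4 and CCL5 are made by activated and cytotoxic T cells and natural killer (NK) cells and act on receptors of the CCR group such as CCR1 and CCR3, whereas XCL1 and XCL2 act on XCR1, a receptor of cross-presenting dendritic cells. CCL1 is the ligand of CCR8, CCL22 is best known from dendritic cells and macrophages and acts on CCR4, and CXCL10 is an interferon-induced ligand of CXCR3. Transcription of several of these genes is known to respond to NF-kappaB, interferon-regulated factors, T-box factors and RUNX factors.

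The 250 bases upstream of the canonical transcript start are given for 3 human genes, read from hg19 and written 5′ to 3′ on the gene's strand. XCL1 and XCL2 are shown as near-identical copies that were abundant together in TALL104, and CXCL10 as a member that was listed at 0 there. Capitals in CXCL10 mark matches to the motifs named below, and capitals in XCL1 and XCL2 mark the bases that differed or had no partner in the alignment of the pair.
XCL1 (chr1:168545593-168545842, plus strand): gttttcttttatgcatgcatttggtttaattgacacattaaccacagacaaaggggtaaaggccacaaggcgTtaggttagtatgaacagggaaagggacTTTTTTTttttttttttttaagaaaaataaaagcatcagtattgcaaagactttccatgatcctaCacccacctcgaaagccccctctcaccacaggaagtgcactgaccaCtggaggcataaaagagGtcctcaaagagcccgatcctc
XCL2 (chr1:168513236-168513485, minus strand): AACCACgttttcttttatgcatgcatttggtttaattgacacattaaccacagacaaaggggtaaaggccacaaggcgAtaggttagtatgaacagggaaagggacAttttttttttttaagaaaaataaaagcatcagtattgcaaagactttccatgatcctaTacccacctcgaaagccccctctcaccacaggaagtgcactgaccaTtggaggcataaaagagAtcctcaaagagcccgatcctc
CXCL10 (chr4:76944651-76944900, minus strand): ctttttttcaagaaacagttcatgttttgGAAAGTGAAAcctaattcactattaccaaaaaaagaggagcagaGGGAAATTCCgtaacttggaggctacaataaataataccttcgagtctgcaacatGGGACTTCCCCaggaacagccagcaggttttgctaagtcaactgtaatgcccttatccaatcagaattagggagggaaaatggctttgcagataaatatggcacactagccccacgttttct

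None of these 3 windows overlapped an annotated exon on the same strand. Both strands were searched for the 10-base kappaB consensus, the interferon response element core (GAAA, any 2 bases, GAAA), the AP-1 site TGANTCA, the T-box site AGGTGTGA and the RUNX site TGTGGTT. CXCL10 held a kappaB match at bases -177 to -168 from the start, a pair of overlapping kappaB matches from -122 to -112 and 1 interferon element match at -221 to -212. XCL1 and XCL2 held 1 RUNX match each, at -211 to -205 and at -205 to -199, and no kappaB match. CCL1 and CCL22 held overlapping kappaB matches, and CCL3, whose window overlaps 1 annotated exon on its strand, and CCL4 held no match to any of the 5 motifs. The search also took in the first transcribed bases of each gene, which are not printed, and every match named here lay upstream. Over 19869 promoter windows of the length searched, 26.4% held a kappaB match and 3.29% the interferon element core. The AP-1 site was found in 5.41%, the T-box site in 0.961% and the RUNX site in 3.35%. A match describes the sequence and is no measured binding site.

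CCL5, also called RANTES, was the highest of the chemokines in TALL104. Its level was 0.133 FPKM in Jurkat (FPKM being fragments scaled to gene length and library total, here from 7 reads, 95% counting interval 0.0535 to 0.274) and 799.9 FPKM in TALL104 (34285 reads, 791.5 to 808). The intervals, which cover counting error only, did not overlap, and the read rate was 6010.1 times higher in TALL104 (95% interval 2917 to 14949.7). CCL5 ranked 21 among 32738 human genes by FPKM in TALL104 and held 0.317% of all human FPKM there, whereas it ranked 14223 in Jurkat. The gene (ENSG00000161570) lies on the minus strand at chr17:34198495-34207797 (hg19).

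XCL1 and XCL2, the lymphotactins, lie on opposite strands of chromosome 1, XCL1 at chr1:168545843-168551307 and XCL2 at chr1:168510006-168513235. XCL2 was at 0.305 FPKM in Jurkat (6 reads, 0.112 to 0.665) and 153 FPKM in TALL104 (2450 reads, 147 to 159). XCL1 was at 0.0421 FPKM in Jurkat (2 reads, 0.00509 to 0.152) and 112 FPKM in TALL104 (4329 reads, 108 to 115). Both genes were therefore far higher in TALL104, where they ranked 146 and 211 among human genes. The read rate was 501.1 times higher for XCL2 (229.9 to 1367) and 2656 times higher for XCL1 (735 to 21939), the latter against only 2 reads in Jurkat. XCL2 had fewer reads than XCL1 in TALL104 but a higher level per length, since the gene lengths solved from the table were 565 and 1367 bases.

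The lymphotactin genes are close copies. Their canonical transcripts, of 1227 bases in XCL1 and 562 in XCL2, were identical at 553 of 562 aligned bases (98.4%). The rest of the XCL1 transcript had no partner. Of windows as long as 1 read, 24 of 462 in XCL2 (5.19%) were found unchanged in XCL1. In XCL1, 24 of 1127 (2.13%) were found unchanged in XCL2, so most windows of that length are not shared unchanged. The upstream windows printed above were identical at 239 of 244 aligned bases (98.0%). How the counting treated reads that fit both copies is not given in the sources used here, so the share of reads assigned between the genes could not be checked. Together they had 8 reads in Jurkat and 6779 reads in TALL104, numbers that do not depend on how shared reads were divided, although reads with several alignments may have been left out of both. The summed level was 0.347 FPKM in Jurkat and 265 FPKM in TALL104.

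CCL3 and CCL4, the macrophage inflammatory proteins, which are encoded next to each other at chr17:34415602-34417515 (minus strand) and chr17:34431220-34433014 (plus strand), were detected in TALL104 at much lower levels. CCL4 was listed at 0 in Jurkat, where 3 reads would have been 0.170 FPKM, and stood at 18.7 FPKM in TALL104 (269 reads, 16.5 to 21.1). CCL3 was listed at 0 in Jurkat, where 3 reads would have been 0.0577 FPKM, and stood at 13.3 FPKM in TALL104 (563 reads, 12.2 to 14.4). Each was thus seen in TALL104 alone, at least 110.0-fold higher for CCL4 and at least 230.3-fold higher for CCL3 than 3 reads in Jurkat. The recovered length of CCL4 was 508 bases against 1795 annotated, so its reads may miss a common factor. The FPKM does not depend on that factor, while the interval, the fold against 3 reads in Jurkat and the lower limit do.

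Few reads were counted on nearby copies of these genes. CCL4L1 was at 0.470 FPKM (19 reads) and CCL3L1 at 0.0480 FPKM (2 reads) in TALL104, CCL4L2 was listed at 0, and all 3 were at 0 in Jurkat. CCL3L3 was not analysed here. Reads that fit several copies may have been left out, so these values do not show how much the copies contributed. Summed with their copies, CCL3 stood at 13.3 FPKM and CCL4 at 19.2 FPKM in TALL104. No window as long as 1 read in the canonical CCL3 or CCL4 transcript was found unchanged in the annotated transcripts of its copies. The copies were not compared with each other.

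CCL1, CCL22 and CXCL10 were below 1 FPKM in both human lines. CCL1, the CCR8 ligand, was at 0.389 FPKM in Jurkat (4 reads, 0.106 to 0.995) and 0.119 FPKM in TALL104 (1 read, 0.00302 to 0.664), and its Jurkat to TALL104 ratio of 3.26 had an interval of 0.323 to 161. The recovered length of CCL1 was 296 bases against 594 annotated, so its reads and these intervals carry the same limit as those of CCL4. CCL22 was listed at 0 in Jurkat and at 0.0723 FPKM in TALL104 (6 reads, 0.0265 to 0.157), which was at least 2.45-fold above 3 reads in Jurkat. CXCL10 was at 0.0245 FPKM in Jurkat (1 read) and listed at 0 in TALL104. For CCL1 and CXCL10 no difference was detectable at this depth. CXCL10 overlaps ART3 on the other strand, which was at 0.00877 FPKM in Jurkat and at 0 in TALL104. CCL5, CCL3, XCL1 and XCL2 also overlap annotated genes on the other strand, whose levels are not given here. The strand setting of the counting is not known, so a part of such genes in the listed levels could not be checked.

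**Figure D1:**
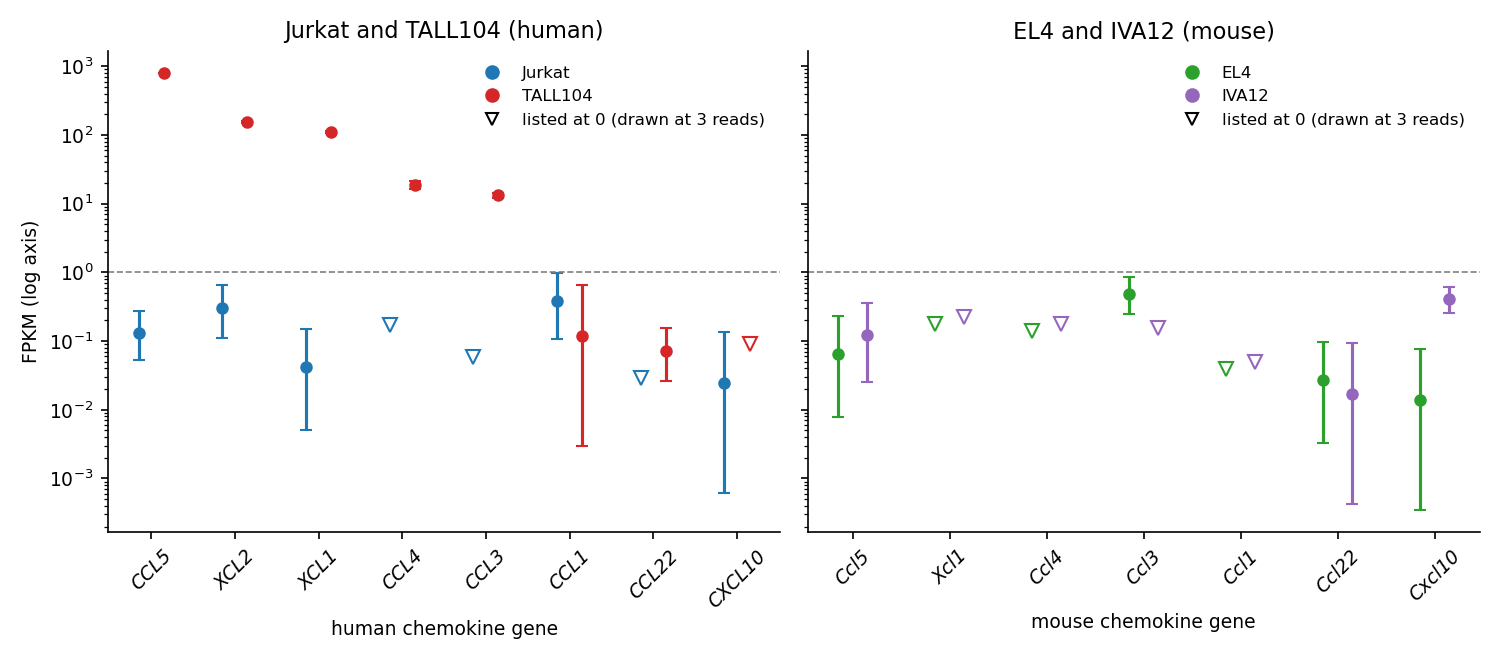
Level of each chemokine gene (FPKM, log axis) in the 2 human lines (left) and the 2 mouse lines (right), with 1 library per line. Points are FPKM values, bars are 95% counting intervals, open triangles are genes listed at 0 drawn at the level of 3 reads, and the dashed line is 1 FPKM. CCL5, XCL2, XCL1, CCL4 and CCL3 stood between 13.3 and 799.9 FPKM in TALL104, and every other value lay below 1 FPKM.

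The levels within TALL104 fell in the order CCL5, XCL2, XCL1, CCL4 and CCL3. Each of these neighbours differed beyond the counting intervals, with steps of 5.23-fold from CCL5 to XCL2, 1.37-fold to XCL1, 5.98-fold to CCL4 and 1.41-fold to CCL3. The order and shares of XCL2 and XCL1 rest on how shared reads were assigned and on the gene lengths used, which the intervals do not cover. CCL3 was 112 times above CCL1, the next gene, and the intervals of CCL1, CCL22 and CXCL10 overlapped. CCL5 held 72.9% of the summed FPKM of the 8 genes in TALL104 (1097 FPKM), followed by XCL2 with 13.9%, XCL1 with 10.2%, CCL4 with 1.70% and CCL3 with 1.21%. In Jurkat the sum was 0.893 FPKM from 20 reads, and no neighbours in the order CCL1, XCL2, CCL5, XCL1 and CXCL10 differed beyond their intervals.

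Expressed as log2 ratios of FPKM + 1, a scale that draws low genes toward 0, TALL104 over Jurkat gave 9.47 for CCL5, 6.88 for XCL2, 6.76 for XCL1, 4.30 for CCL4 and 3.84 for CCL3. The same ratio was 0.10 for CCL22, -0.03 for CXCL10 and -0.31 for CCL1. Beyond a 1.5-fold difference on this scale, 5 of the 8 genes were higher in TALL104, where 11.4% of all human genes were, and 0 were higher in Jurkat, where 13.8% were. The median log2 ratio was 4.07 over the 8 genes and 0.00 over all 32738 genes. Since the genes were chosen with these levels known, the counts describe them and support nothing further. The 9465 human genes detected from 1 FPKM in each line had a median log2 ratio of -0.11, and scaling by it moved no chemokine gene across the threshold.

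**Figure D2:**
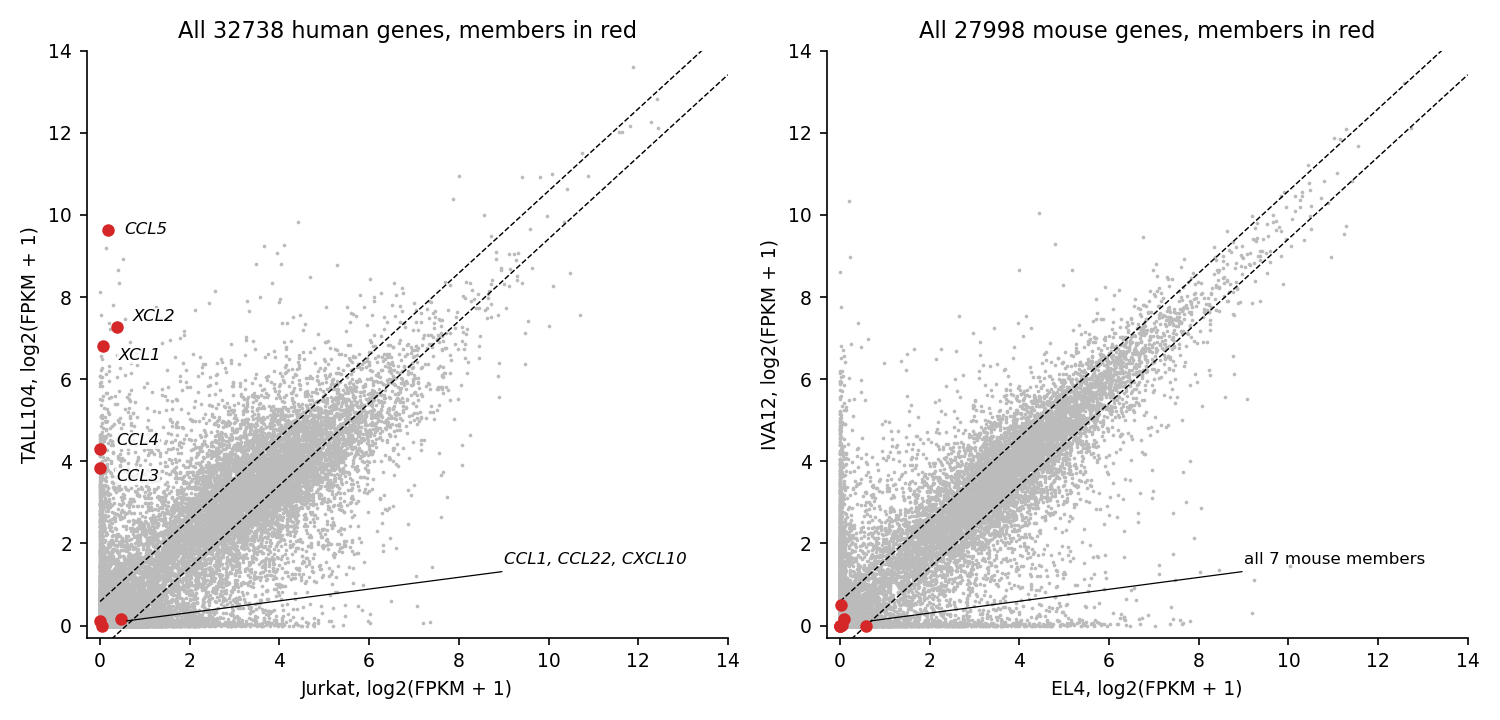
Level of every gene, log2(FPKM + 1), in TALL104 against Jurkat (left) and in IVA12 against EL4 (right). Grey points are all genes, red points the chemokine genes, and dashed lines mark 1.5-fold differences. CCL5 lies at the upper left edge of the human plot with a log2 ratio of 9.47, and all 7 mouse genes lie near the origin within 1.5-fold.

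At least 1 FPKM was reached by 0 of 8 genes in Jurkat, where 33.2% of all human genes reached it, and by 5 of 8 in TALL104 (33.1%). It was reached by 0 of 7 mouse genes in EL4 (34.3%) and in IVA12 (35.0%). The 8 genes had 20 reads in Jurkat and 41903 in TALL104, and the 7 mouse genes had 17 in EL4 and 27 in IVA12. In bulk libraries, a small fraction of cells with much of an RNA and many cells with little of it cannot be told apart.

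None of the mouse chemokine genes was abundant in EL4 or IVA12. Ccl5 was at 0.0648 FPKM in EL4 (2 reads, 0.00785 to 0.234) and 0.124 FPKM in IVA12 (3 reads, 0.0255 to 0.361), and its IVA12 to EL4 ratio of 1.91 had an interval of 0.218 to 22.8. Ccl22 was at 0.0268 FPKM in EL4 (2 reads) and 0.0170 FPKM in IVA12 (1 read). Neither gene differed detectably between the mouse lines at this depth. Xcl1, Ccl1 and Ccl4 were listed at 0 in both lines, where 3 reads would have been 0.0394 to 0.227 FPKM.

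Ccl3 and Cxcl10 were the mouse genes with more than a few reads. Ccl3 was at 0.487 FPKM in EL4 (12 reads, 0.252 to 0.851) and listed at 0 in IVA12, at least 3.15-fold higher in EL4 than 3 reads in IVA12. Cxcl10 was at 0.0138 FPKM in EL4 (1 read, 0.000350 to 0.0770) and 0.404 FPKM in IVA12 (23 reads, 0.256 to 0.606), and its read rate was 29.2 times higher in IVA12 (4.75 to 1205). The counting intervals of these genes did not overlap between the lines, Ccl3 being the higher in EL4 and Cxcl10 in IVA12. On the FPKM + 1 scale, however, 0 of 7 mouse genes passed 1.5-fold in either direction, against 11.2% of all mouse genes higher in IVA12 and 9.75% higher in EL4. The median log2 ratio of the 7 genes was 0.00, as it was over all 27998 mouse genes. Cxcl10 overlaps Art3 on the other strand, which had 0 reads in EL4 and 4 in IVA12.

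Reads were aligned to human and mouse together, so the mouse libraries show how many reads fell on the human genes without human cells. Human CCL5 had 5 reads in EL4 (0.103 FPKM) and again 5 in IVA12 (0.131 FPKM), against the 7 reads in Jurkat. Relative to its rate in TALL104, human CCL5 stood at 0.0166% in Jurkat (0.00669 to 0.0343), 0.0129% in EL4 (0.00417 to 0.0300) and, similarly, 0.0163% in IVA12 (0.00531 to 0.0382). The Jurkat rate was 129% of that in EL4 (35.4 to 517) and 102% of that in IVA12 (27.8 to 407), so the CCL5 level listed for Jurkat was not separable from that in libraries of mouse cells. The source of these reads was not tested.

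The other human genes had few such reads. XCL1 and CCL3 had 1 read each in EL4 and 0 in IVA12, and the other 5 human genes had 0 in both mouse libraries. XCL2 had 6 reads in Jurkat and 0 in either mouse library, with 95% intervals that reach 0.133% of its TALL104 rate in EL4 and 0.169% in IVA12, against 0.1996% in Jurkat (0.0732 to 0.435). The interval of XCL2 in Jurkat thus overlapped those of both mouse libraries. In the reverse direction, none of the 7 mouse genes had a read in Jurkat or TALL104. Over whole libraries, genes of the other species held 0.0379% to 0.175% of the FPKM.

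In all, 18 human genes had at least 100 FPKM in TALL104 and under 1 FPKM in Jurkat, CCL5, XCL1 and XCL2 among them. This set was chosen after the values were seen. Pooled over the 18 genes, reads stood at 0.144% of the TALL104 read rate in Jurkat, 0.00990% in EL4 and 0.0252% in IVA12. The percentage of CCL5 in Jurkat was below that of 15 of the 18 genes, whereas its percentages in EL4 and IVA12 were below those of 5 and 6.

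**Figure D3:**
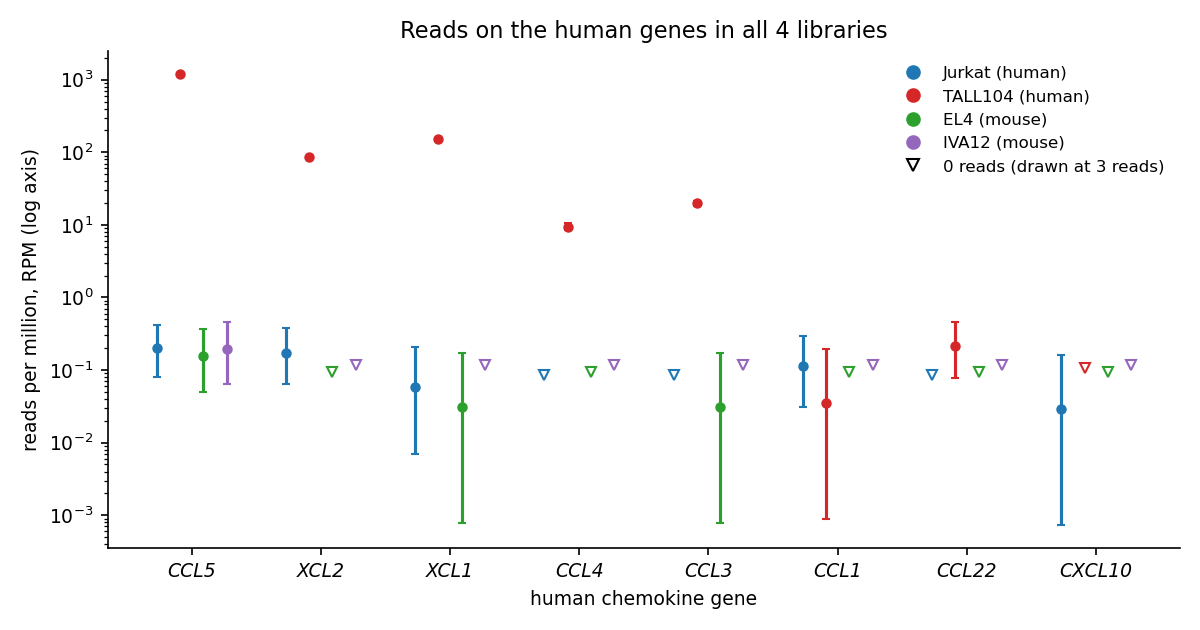
Reads scaled to library total (RPM, log axis) on the 8 human chemokine genes in all 4 libraries, the mouse ones included. Bars are 95% counting intervals and open triangles are genes with 0 reads, drawn at 3 reads. The Jurkat, EL4 and IVA12 points for CCL5 lie together at 0.156 to 0.201 RPM, and the TALL104 point lies at 1209.5.

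TALL104 also had RNA of receptors that bind these chemokines. Beyond 1.5-fold on the FPKM + 1 scale, 4 of the 6 receptor genes examined were higher in TALL104, where 11.4% of all human genes were. In Jurkat 1 was higher, where 13.8% of all human genes were, and 1 differed by less. Of human genes with at least 1 FPKM in either line, as 5 of the 6 were, 28.4% were higher in TALL104 and 34.2% in Jurkat. The median log2 ratio of the 6 was 1.92 against 0.00 over all genes. CCR1, a receptor of CCL3 and CCL5, was at 0.126 FPKM in Jurkat and 20.7 FPKM in TALL104, and CCR3, a further CCL5 receptor, at 0.0158 and 1.75 FPKM. Both of these receptors of CCL5 were thus higher in the line that held its RNA. CXCR3, the receptor of CXCL10, was at 2.52 FPKM in Jurkat and 52.4 FPKM in TALL104, and CCR8, the receptor of CCL1, at 3.31 and 21.9 FPKM, although neither ligand reached 1 FPKM. CCR4, the CCL22 receptor, was higher in Jurkat, at 5.09 FPKM against 0.616 FPKM. XCR1, the receptor of XCL1 and XCL2, was listed at 0 in Jurkat and 0.0457 FPKM in TALL104 (7 reads).

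In the mouse lines, 1 of the 6 receptor genes was higher in EL4, where 9.75% of all mouse genes were, and 1 in IVA12, where 11.2% were. The median log2 ratio of the 6 was 0.00. EL4 held Ccr4 at 33.9 FPKM, against 0.0142 FPKM in IVA12, and Cxcr3 at 0.0180 and 1.965 FPKM. Ccr1, Ccr3 and Ccr8 were listed at 0 in both lines, and Xcr1 was at 0.0140 FPKM in EL4 (2 reads) and at 0 in IVA12. Ccr4 in EL4 was therefore the highest of the receptors in either mouse line, and its ligand Ccl22 had 2 reads there.

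Of 11 transcription factors known to act on genes of this kind, 7 were higher in TALL104 beyond 1.5-fold, 0 were higher in Jurkat and 4 differed by less (median log2 ratio 1.25). All 11 had at least 1 FPKM in TALL104, and of all human genes with that level in either line 28.4% were higher in TALL104 and 34.2% in Jurkat. BHLHE40, a factor of cytokine-producing T cells, was at 1.62 FPKM in Jurkat and 117 FPKM in TALL104. STAT4, which transmits the IL-12 signal, was at 2.45 and 66.6 FPKM, and TBX21, which encodes T-bet, at 0.330 and 23.7 FPKM. These 3 had the largest differences of the list, with log2 ratios of 5.49, 4.29 and 4.22. RUNX3, a factor of CD8+ T cells, was at 5.04 and 21.5 FPKM, KLF13, known as a late activator of CCL5 in T cells, at 20.1 and 75.0 FPKM, and EOMES, a T-box factor of cytotoxic lymphocytes, at 7.16 and 18.4 FPKM. In the mouse lines 6 of the 11 were higher in EL4 and 2 in IVA12 (median log2 ratio -0.65). Of mouse genes with at least 1 FPKM in either line, as 8 of the 11 were, 23.8% were higher in EL4 and 26.5% in IVA12. EL4 held Bhlhe40 at 16.4 FPKM, against 0.0336 FPKM in IVA12, while Runx3 was at 14.1 and 1.86 FPKM, Stat5a at 9.86 and 2.001 FPKM, and Nfkb1 at 17.2 and 6.42 FPKM. Irf1 was higher in IVA12, at 19.4 against 6.49 FPKM, and so was Klf13, at 29.8 against 10.9 FPKM. Tbx21 was at 0.613 FPKM in EL4 and at 0 in IVA12, Stat4 had 3 and 7 reads, and Eomes was at 0 in both.

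Genes for effector molecules that cytotoxic lymphocytes release were higher in TALL104 in all 8 cases beyond 1.5-fold (median log2 ratio 3.52). Of all human genes 11.4% were, or 28.4% of those that reach 1 FPKM in a human line, as 7 of the 8 did. PRF1, which encodes perforin, was at 3.35 FPKM in Jurkat and 204 FPKM in TALL104, and TNF at 0.103 and 49.5 FPKM. FASLG, the ligand of the death receptor Fas, was at 0.122 and 35.6 FPKM, and SRGN, the granule proteoglycan, at 15.0 and 245 FPKM. GZMB, which encodes granzyme B, was at 0.225 and 9.45 FPKM, and LTA, which encodes lymphotoxin alpha, at 2.02 and 14.5 FPKM. CCL5 was above each of these genes in TALL104, and XCL2 was above 6 of the 8. FASLG found no mouse gene of the same symbol, so the mouse Fas ligand was not examined. Of the 7 other mouse genes of this list, 3 were higher in EL4, where 9.75% of all mouse genes were. In IVA12 1 was higher, where 11.2% of all mouse genes were (median log2 ratio -0.57). Gzmb was at 8.16 FPKM in EL4 and listed at 0 in IVA12, Tnf at 5.20 and 1.25 FPKM, and Srgn at 56.6 and 23.7 FPKM.

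**Figure D4:**
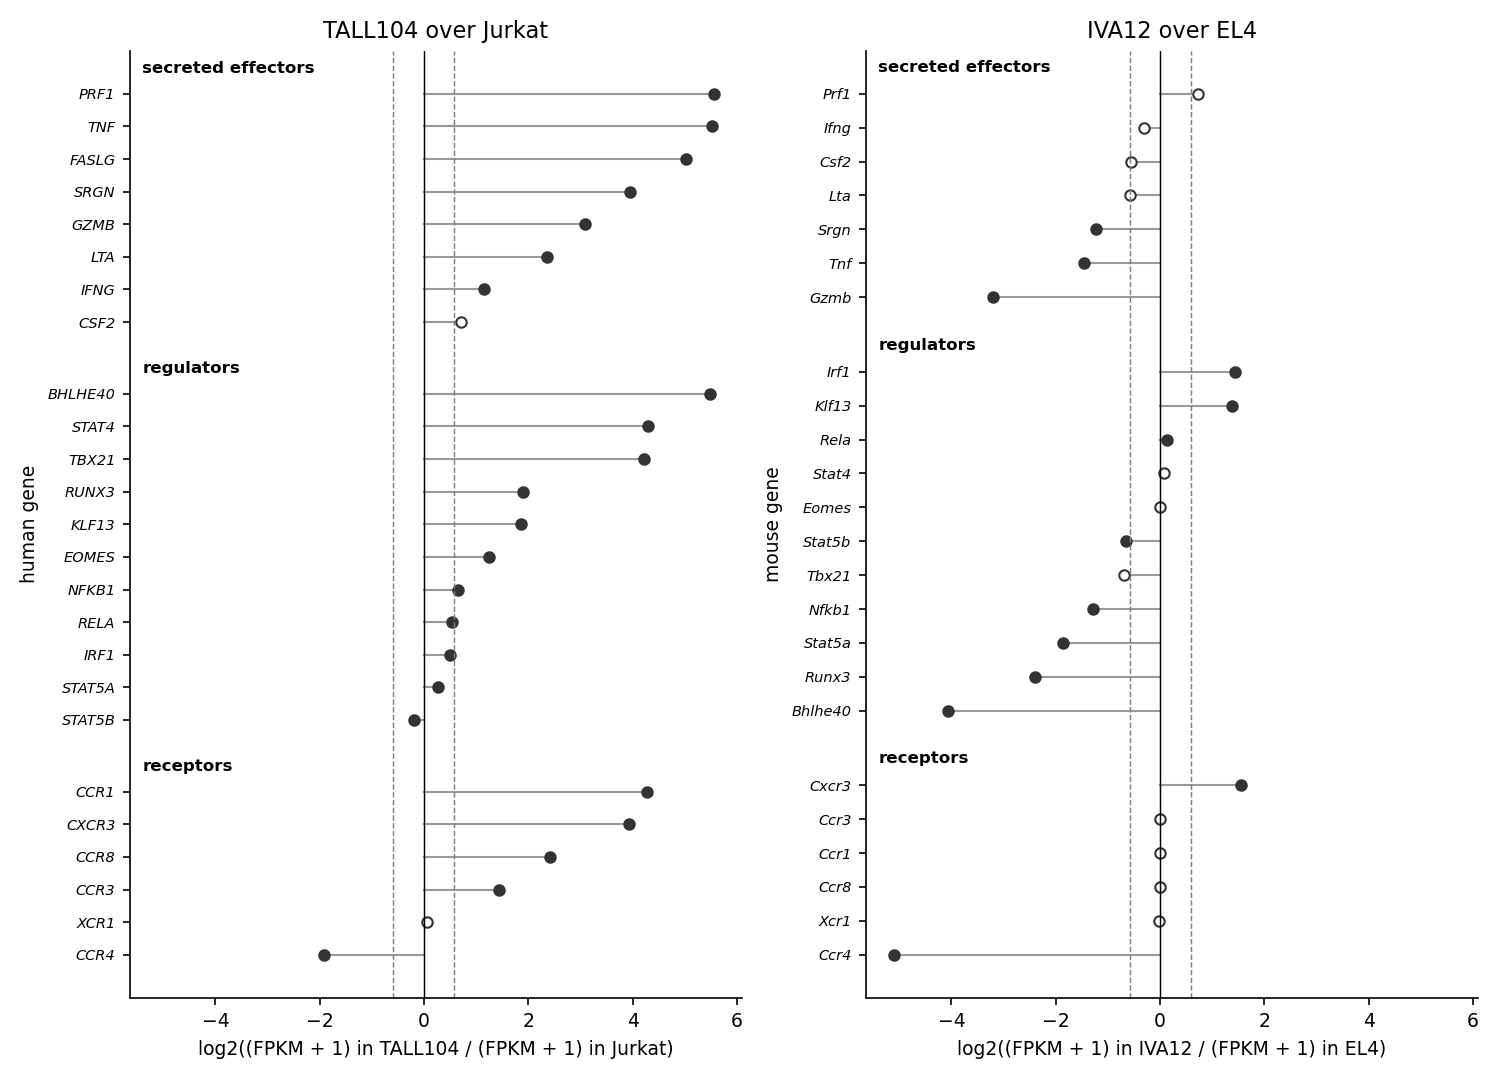
Log2 ratio of FPKM + 1 for the chemokine receptors, the transcription factors and the secreted effector genes, TALL104 over Jurkat (left) and IVA12 over EL4 (right). Filled points had at least 1 FPKM in either line, open points did not, and dashed lines mark 1.5-fold. In the human pair 19 of the 25 genes lie to the right of the upper dashed line and CCR4 alone to the left of the lower. Of all human genes, 11.4% lie to the right and 13.8% to the left. In the mouse pair 10 of 24 lie to the left and 4 to the right, against 9.75% and 11.2% of all mouse genes.

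The other chemokine genes matched by symbol were nearly silent in all 4 lines. Of 35 other human chemokine genes 30 were matched. CCL14, CCL15, CCL16, CCL18 and CCL23 found no match and were not examined, so their levels are not given. Of the 30, 2 were higher in TALL104 beyond 1.5-fold, where 11.4% of all human genes were, and 28 differed by less. The median log2 ratio of the 30 was 0.00. CCL28, an epithelial chemokine, was the only one of the 30 to reach 1 FPKM, at 0.00622 FPKM in Jurkat and 1.73 FPKM in TALL104. The 30 genes summed to 3.01 FPKM in TALL104, against 1097 FPKM for the 8 members. Of 31 other mouse chemokine genes 30 were matched by symbol, Cxcl11 being the exception. Of these 30, 27 were at 0 in both lines. Only Ccl25, a chemokine of thymus and gut, reached 1 FPKM, at 2.02 FPKM in EL4 against 0.749 FPKM in IVA12.

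The labelled cell types were checked against marker genes. Of 8 T-cell markers, 8 reached 1 FPKM in Jurkat and in EL4, 7 in TALL104 (CD28 stood at 0.989 FPKM) and 3 in IVA12, and all 4 plasma-cell markers did so in IVA12. Beyond 1.5-fold, 4 of the 8 human T-cell markers were higher in Jurkat and 1 in TALL104. The shares of all human genes were 13.8% and 11.4%, or 34.2% and 28.4% of those that reach 1 FPKM in a human line. The cytotoxic and NK markers summed to 15.3 FPKM in Jurkat and 847 FPKM in TALL104, of which NKG7 alone held 11.6 and 605 FPKM. All 6 were higher in TALL104 beyond 1.5-fold, and 5 of them reached 1 FPKM there. Of all human genes 11.4% were higher, or 28.4% of those that reach 1 FPKM in a human line. Of 8 monocyte, macrophage and dendritic-cell markers, 4 reached 1 FPKM in TALL104 and 1 in Jurkat, with sums of 21.2 and 1.503 FPKM. ITGAX, ADGRE1 and ITGAM, at 9.33, 8.79 and 1.47 FPKM, were higher in TALL104, whereas CSF1R was at 0 in both human lines and CD14 at 0.0457 FPKM in Jurkat and 0.0187 FPKM in TALL104. The part of these markers in the chemokine levels was not tested.

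The genes with the pattern nearest to CCL5 were sought over the 4 libraries, by the distance of log2(FPKM + 1) over 15553 genes whose symbol is shared by human and mouse. KLRB1, which encodes the NK-cell receptor CD161, was the nearest (distance 0.48), with 0.0993 FPKM in Jurkat, 589.6 in TALL104 and 0 in both mouse lines. KIT, the stem cell factor receptor, followed at 1.33, S100A11, a calcium-binding protein, at 1.86, TC2N at 2.22 and IL12RB2, a chain of the IL-12 receptor, at 2.81. These 5 genes stood between 114 and 589.6 FPKM in TALL104 and at 0.458 FPKM or less in each of the other libraries. XCL1 came at place 8, CCL4 at place 127 and CCL3 at place 232. Within the human pair the nearest genes were KLRB1, ENSG00000255026 (0.435 and 488 FPKM) and ENSG00000117289 (0.309 and 404 FPKM). Within the mouse pair Gm26834, Gm16755 and Gm13830 were nearest to Ccl5, but 703 mouse genes lay within a distance of 0.1 of it, so that order names genes with as few reads and little else.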

How the data were processed

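The authors made 1 stranded mRNA library per line (TruSeq Stranded mRNA, paired reads), aligned the reads with STAR 2.5.1b to a joint hg19 and mm10 reference of Cell Ranger 1.2.0 and counted them per gene with featureCounts 1.6.3. The values deposited by the authors are FPKM for both species together. Gene lengths, the strand setting and what was done with multiply aligned reads are not given in the sources used here.

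Reads were recovered from the FPKM as whole numbers (relative tolerance 1e-12). This succeeded for all 20689 human and 16783 mouse genes with a value above 0 in any library of either species. The length so solved was that of the annotation's exons in 22.2% (human) and 72.8% (mouse) of genes. Reads of the others may miss a common factor. Counts have exact Poisson intervals and ratios of read rates exact conditional binomial intervals, both at 95% and for counting error only. A gene was detected from 1 FPKM, and ratios were taken on FPKM + 1 with a threshold of 1.5-fold. Where a line had 0 reads, the fold is against 3 reads per library. Positions and symbols are from GENCODE 44 (lifted to hg19) and M21 (mm10), the identifiers of CCL5, CCL3 and CCL4 being matched by symbol. Upstream windows and canonical transcripts come from the same sources. Steps were tested on data simulated with the annotated gene lengths, so recovery of reads under other lengths was not tested. They were run with Python 3.11.15, NumPy 2.4.6, pandas 2.3.3, SciPy 1.17.1 and matplotlib 3.10.9.

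The members, gene lists and thresholds were chosen with earlier results of these data known. Some listed genes and 1 upstream sequence are not reported here, and the list counts leave those genes out. The text names every member and its near-identical copies, its receptors, the 5 genes nearest CCL5 over the 4 libraries and the 3 nearest in each pair, and from each list up to 6 genes with at least 1 FPKM and the largest log2 ratios. With 1 library per line no test was possible. Alternatives were other pseudocounts, scalings, thresholds, detection limits, summed copies and other measures of likeness.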

Additional observations from a re-analysis of the deposited data

Results flagged for a closer look

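Human CCL5 had a signal in both libraries of mouse cells, which the comparisons between lines do not use. It was at 0.103 FPKM in EL4 and 0.131 FPKM in IVA12, from 5 reads each, above the limit of 3 reads, and at 0.133 FPKM in Jurkat. The source of the reads was not tested.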

How the results depend on the processing

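With 1 library per line, leaving out a replicate was not possible, and the counts rest on single libraries. No paired analysis was possible because no line has a second library. The number of human genes higher in TALL104, 5 as reported, was 5 or 6 under each other alternative except that it was 4 of 7 with XCL1 and XCL2 summed. The log2 ratios of these 5 genes stayed positive, from 3.84 to 12.4, and the 3 scalings moved no member by more than 0.11.

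Genes with few reads did depend on the choices. With pseudocounts of 0.1 and 0.01, 1 and 2 human genes were higher in Jurkat in place of 0. In the mouse pair 1 and 2 genes were then higher in IVA12 and 1 under either pseudocount in EL4, in place of 0. Counted by a read-rate interval that excludes 1, a choice made after seeing the data, 1 mouse gene was higher in each line. At 0.1 FPKM, 3 genes were detected in Jurkat, 1 in EL4 and 2 in IVA12. At any value above 0 these were 5, 4 and 3, and by more than 3 reads, added after seeing the data, 3, 1 and 1. By Pearson correlation, 0 of the 5 genes nearest CCL5 stayed among the first 5, since 651 of 14172 genes had r of at least 0.99 over the 4 libraries. For all genes, the share higher in TALL104, 11.4% as reported, was 17.3% and 20.9% with those pseudocounts, 6.95% at 2-fold and 28.4% over genes with at least 1 FPKM in either line, which include each of the 5 members counted.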
